A study of Homo sapiens with 12 samples.

Results

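A pooled CRISPR knockout screen in MIA PaCa-2, a pancreatic cancer cell line, was read here as a direct comparison of its library grown in 500 nM INX-315, a CDK2 inhibitor, with its library grown in 250 nM palbociclib, a CDK4/6 inhibitor. These are 2 of the 12 libraries of the series. All 71090 guides (sgRNAs) of the TKOv3 knockout library were compared between both drugs, with no vehicle library in the ratio, to list the genes whose loss left cells more or less abundant under one drug than under the other. Both libraries came from the same Cas9 mutant pool of cells infected with the lentiviral library and selected with puromycin. The labels place both at passage 8, beside a start library at passage 1 and a library at passage 8 in 0.1% DMSO, while the methods give up to 5 passages. The label of the palbociclib library writes its dose as 250 mM, and the protocol gives 250 nM. Each condition is 1 library, so no value has a biological replicate and no p-value was computed. Every spread given for a gene is the SD over its guides, which measures agreement among guides and not among cultures.

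CDK4 and CDK6, bound to D-type cyclins, begin the phosphorylation of RB in G1, and CDK2, bound to cyclin E and then cyclin A, carries it on into S phase. RB holds back the E2F factors, and the related pocket proteins p107 and p130 (RBL1 and RBL2) repress cell cycle genes with E2F4 and the MuvB core. Later in the cycle, B-MYB and FOXM1 switch on the G2/M genes, among them cyclin B1, the partner of CDK1. MIA PaCa-2 is known to lack the chromosome 9 locus that encodes CDKN2A, CDKN2B and MTAP. A guide whose target gene is needed for growth is lost from the pool, and a guide that protects cells from a drug becomes more abundant in it.

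A gene was scored by normZ, the DrugZ statistic, which sums the guides' log2 ratios of INX-315 over palbociclib after each is divided by the spread of guides of like abundance, and standardises that sum over all genes. A positive normZ means that cells without the gene were more abundant with INX-315 than with palbociclib, and a negative one that they were less abundant. Of 18050 genes scored, 380 (2.11%) lay over a normZ of 2 and 424 (2.35%) lay under -2. Only 35 of the first and 49 of the second lay past 3 or -3. Just inside the upper threshold lay PXMP2 at 2.002 and just outside it KCNRG at 1.999, and at the lower threshold GIMAP7 lay inside at -2.004 and WNT9A outside at -1.998. Among the 339 olfactory receptor genes, which these cells are not known to use, 8 (2.36%) lay over 2 and 2 (0.59%) under -2, so on the upper side these genes passed 2 at close to the rate of all genes. Their counts depend on the setting, with 4 over 2 and 5 under -2 when guides are ordered by palbociclib counts, 4 and 1 when ordered by start counts, and 9 and 6 without each gene's farthest guide. The extremes lay outside the range of these 339 genes. They are the ends of 18050 genes ranked by the same score, and a smaller set tends to reach less far. Lying outside that range is therefore no independent support. CDK2 had the highest score at 10.96, then CELF1 at 6.24, LCMT1 at 5.22 and PPP2R2A at 4.65, and no olfactory receptor gene was over 2.44. RB1 had the lowest at -6.58, followed by NRM at -4.82, UBA6 at -4.80 and ZBTB49 at -4.66, against -2.73 for the lowest olfactory receptor gene.

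**Figure D1:**
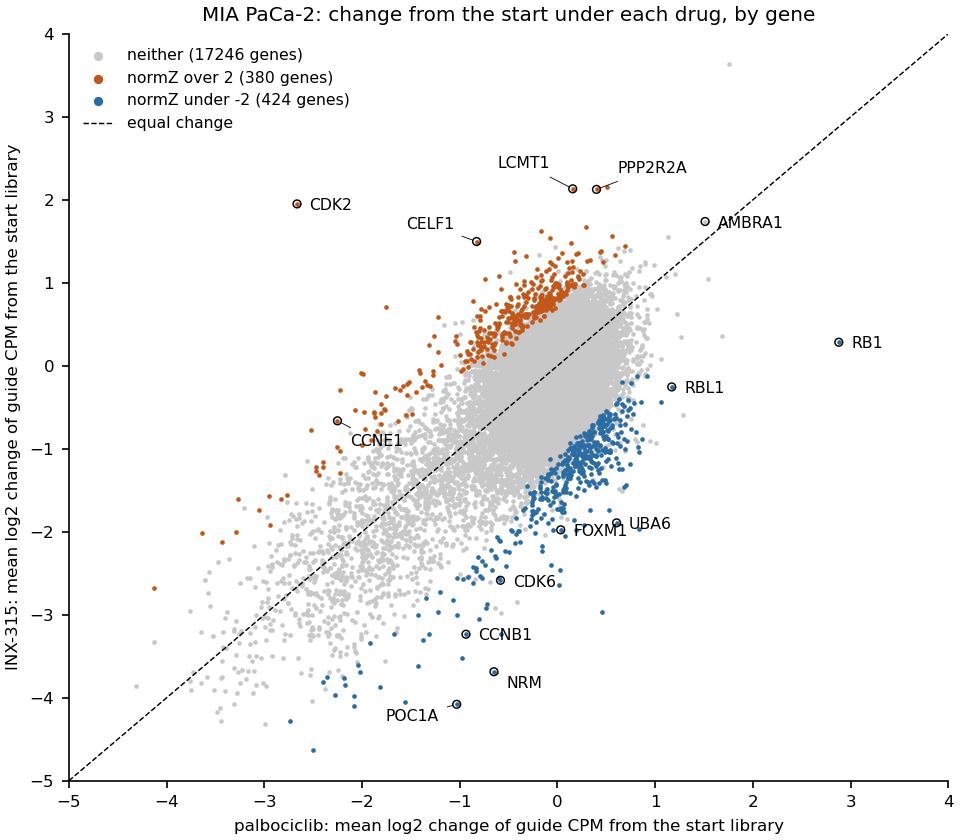
Each point is 1 of 18050 genes, placed by the mean log2 change of its guides' counts per 1000000 (CPM) from the start library in palbociclib (x axis) and in INX-315 (y axis). The dashed line marks equal change. CDK2 stands alone at upper left, at -2.66 with palbociclib and 1.95 with INX-315, RB1 stands alone at right, at 2.88 and 0.28, and AMBRA1 lies near the line at 1.51 and 1.74.

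The depth was 49158931 counts with INX-315 and 41671648 with palbociclib, with 58875726 in DMSO and 56984006 at the start, and the median guide held 568 and 524 counts under the respective drugs. A count of 0 allows up to 3 counts, or 0.061 counts per 1000000 (CPM) with INX-315 and 0.072 with palbociclib. Reads amplified by PCR without molecular identifiers are not independent molecules, so this limit and the intervals below cover counting error only. The INX-315 library stood apart from the others. It held 1294 guides at 0 and 2774 under 30 counts, against 761 and 1837 with palbociclib and 764 and 1582 in DMSO. Across 71090 guides, log2 CPM correlated at 0.91 between DMSO and palbociclib, at 0.72 between INX-315 and palbociclib and at 0.70 between INX-315 and DMSO, values that share the starting abundance of each guide. The change from the start of 1290 olfactory receptor guides had an SD of 0.85 on the log2 scale with INX-315, against 0.55 in DMSO and 0.55 with palbociclib. Their ratio of INX-315 over palbociclib had an SD of 0.88 and ran from -1.58 at the 5th percentile to 1.29 at the 95th. A single guide that differed by about 1 log2 unit between the drugs therefore lay within the range of these control guides. The part of this wider spread in the scores was not tested.

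**Figure D2:**
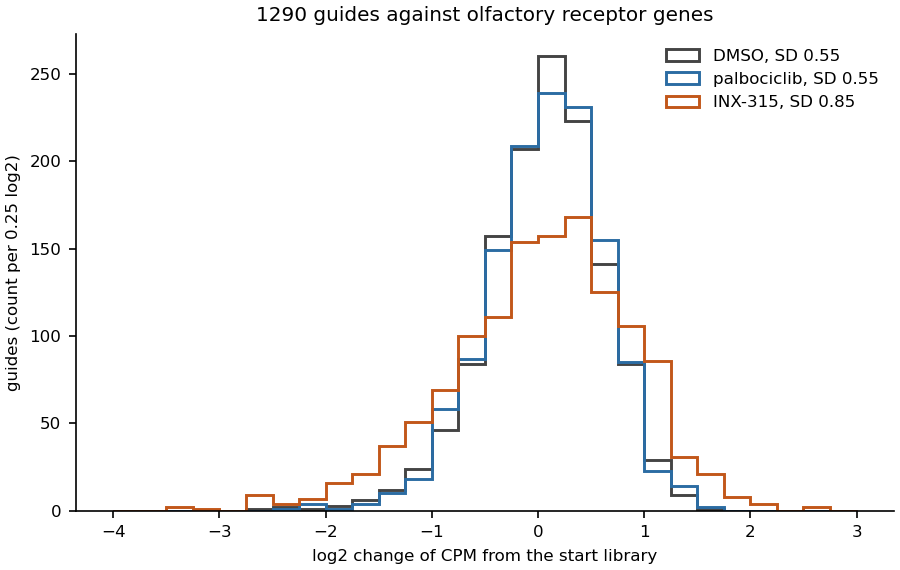
Counts of olfactory receptor guides (y axis) by log2 change of CPM from the start library (x axis, bins of 0.25) in the DMSO, palbociclib and INX-315 libraries of MIA PaCa-2. The INX-315 outline is the widest, with an SD of 0.85 against 0.55 in both of the others.

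By normZ, CDK2 itself was the gene furthest from 0. Its 4 guides, which lie on chromosome 12 between positions 56361670 and 56365344 in the coordinates of the guide names (no source used here names their genome build), held 437, 596, 905 and 1426 counts at the start. In DMSO they held 120, 87, 169 and 916 counts, with palbociclib 0, 20, 122 and 553, and with INX-315 2285, 1676, 3668 and 3336. Scaled for depth, every guide was below its start in DMSO and with palbociclib and above its start with INX-315. Summed over guides, CDK2 stood at 59.0 CPM at the start, 21.9 in DMSO, 16.7 with palbociclib and 223.1 with INX-315, a 13.4-fold difference between the drugs (95% exact interval from the counts 12.4 to 14.5). The mean log2 ratio of its guides was 4.62 ± 1.77 (SD, 4 guides), and the guide at 0 with palbociclib was at least 645.7-fold higher with INX-315, taken against 3 counts.

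The other members of the CDK2 list did not share 1 direction. Of its 10 genes, 3 lay over 2 and 3 under -2. CKS2, a small CDK-binding subunit, stood at 75.9 CPM in DMSO, 173.1 with INX-315 and 83.0 with palbociclib, with a normZ of 2.84 and all 4 guides higher with INX-315. Its guides form 2 overlapping pairs, so they cut at close to 2 places. CCNE1, which encodes cyclin E1, stood at 36.5 CPM at the start, 30.5 in DMSO, 52.8 with INX-315 and 7.10 with palbociclib. Its normZ was 3.32, yet its guides did not carry this equally. The log2 ratios were 3.73 for the guide with 2193 counts with INX-315 and 121 with palbociclib, and 0.46, 1.02 and 1.14 for the others, which held 53 to 185 counts with INX-315. Without its farthest guide the normZ was 1.66. The mean change from the start was -0.38 in DMSO, -0.66 with INX-315 and -2.25 with palbociclib, so 3 of the 4 CCNE1 guides were below the start with both drugs and furthest below it with palbociclib.

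Cyclin E2, cyclin A2 and CDC25A, a phosphatase that activates CDK2, lay on the opposite side from CDK2. CCNE2 stood at 98.9 CPM in DMSO, 25.4 with INX-315 and 75.4 with palbociclib (normZ -2.84, log2 ratio -1.51 ± 0.79 over 4 guides). Of these guides, 2 overlap. CDC25A stood at 65.9, 15.0 and 56.8 CPM (normZ -3.01, log2 ratio -1.77 ± 0.82), lower with INX-315 for all 4 guides. CCNA2 stood at 22.4, 1.99 and 15.7 CPM with a normZ of -2.43, but of its 4 guides 1 was at 0 with both drugs, 1 was higher with INX-315, and without the farthest guide the normZ was -0.83. The remaining CDK2 list genes were between the thresholds, with CCNH at 1.84, CCNA1 at 1.30, CDK7 at -0.46 and MNAT1 at -1.48.

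**Figure D3:**
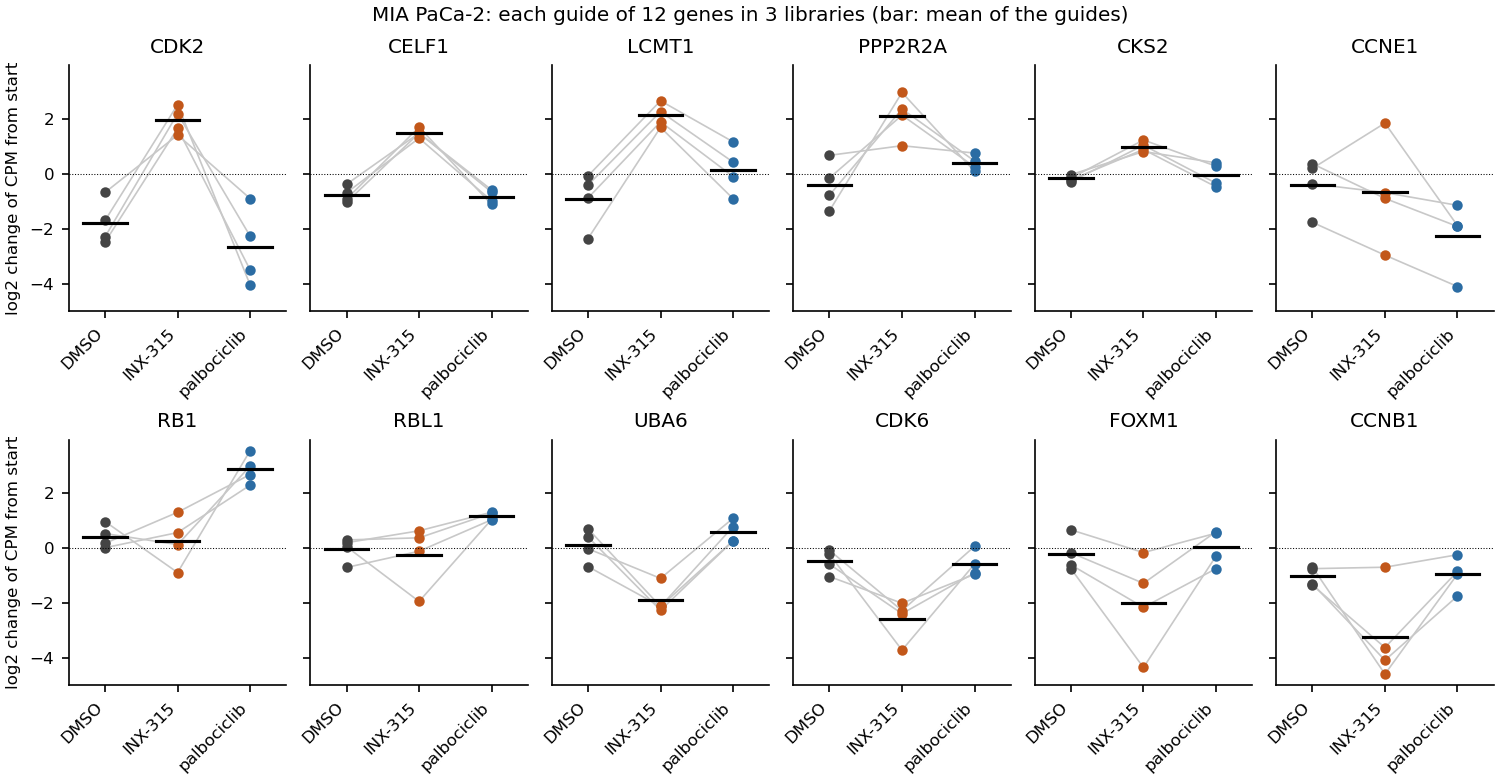
Each point is 1 guide of the named gene and each bar the mean of that gene's 4 guides, as log2 change of CPM from the start library (y axis) in DMSO, INX-315 and palbociclib (x axis). Lines join the same guide. CDK2, CELF1, LCMT1, PPP2R2A and CKS2 peak with INX-315, RB1 and RBL1 peak with palbociclib, and UBA6, CDK6, FOXM1 and CCNB1 dip with INX-315, while CCNE1 is lowest with palbociclib apart from its 1 outlying guide with INX-315.

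RB1 had the lowest normZ, at -6.58, though not the largest fold, since NRM and POC1A, for example, had larger ones from lower counts. Its guides, on chromosome 13 from 48878147 to 48955429 in the same coordinates, held 741, 1720, 1369 and 741 counts at the start and 778, 2019, 2064 and 1531 in DMSO. With palbociclib they held 2743, 8186, 8074 and 6567 counts, and with INX-315 962, 3714, 1299 and 336. The palbociclib counts were the highest for every guide, while with INX-315 the guides went in different directions from DMSO, 2 of them up and 2 down after scaling. The sums were 80.2 CPM at the start, 108.6 in DMSO, 128.4 with INX-315 and 613.6 with palbociclib, a 4.78-fold excess with palbociclib (95% exact interval 4.65 to 4.91). The mean log2 ratio was -2.60 ± 1.38.

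Within the RB, E2F and DP list, RB1 and RBL1 were the 2 of 13 genes under -2 and none was over 2. RBL1 guides summed to 77.9 CPM in DMSO, 84.9 with INX-315 and 172.5 with palbociclib, with a normZ of -2.97. All 4 RBL1 guides lay between 1.04 and 1.31 log2 units above the start with palbociclib, and their ratios between the drugs were -0.68, -0.89, -1.14 and -2.98. RBL1 scored -1.58 when the median guide was taken in place of the sum. RBL2 stood at 42.6 CPM in DMSO, 62.2 with INX-315 and 103.8 with palbociclib, with a normZ of -0.85. E2F4, an E2F that binds RBL1 and RBL2, was above DMSO with both drugs, at 57.3, 135.3 and 104.8 CPM in DMSO, INX-315 and palbociclib, and did not separate them (normZ 1.25). E2F5 was below DMSO with both drugs, at 73.1, 42.7 and 68.3 CPM in the same order (normZ -1.63). The activator E2Fs were between the thresholds, with E2F1 at 1.59, E2F3 at -0.72 and E2F2 at -1.63, as was their partner TFDP1 at -1.90, which stood at 55.9 CPM in DMSO, 28.95 with INX-315 and 57.9 with palbociclib.

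Cells without CDK6 were less abundant with INX-315 than with palbociclib. The CDK6 guides held 812, 281, 332 and 301 counts with palbociclib and 170, 147, 23 and 111 with INX-315, all lower with INX-315 (normZ -3.05, log2 ratio -2.001 ± 0.92). Their sum was 43.4 CPM in DMSO and 41.4 with palbociclib, against 9.17 with INX-315. CDK4 guides stood at 112.5 CPM in DMSO, 129.9 with palbociclib and 204.3 with INX-315, with ratios of 0.21 to 0.82 and a normZ of 1.83. Whether CDK4 and CDK6 differ from each other was not tested. Of the 11 genes of the CDK4/6 list, CDK6 alone was past either threshold. The D cyclins CCND1, CCND3 and CCND2 scored -0.17, -1.64 and -1.86, and CCND3 stood at 40.9, 24.0 and 44.7 CPM in DMSO, INX-315 and palbociclib. The inhibitor genes CDKN2A and CDKN2B, whose locus this line is known to lack, scored 0.48 and -0.96.

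**Figure D4:**
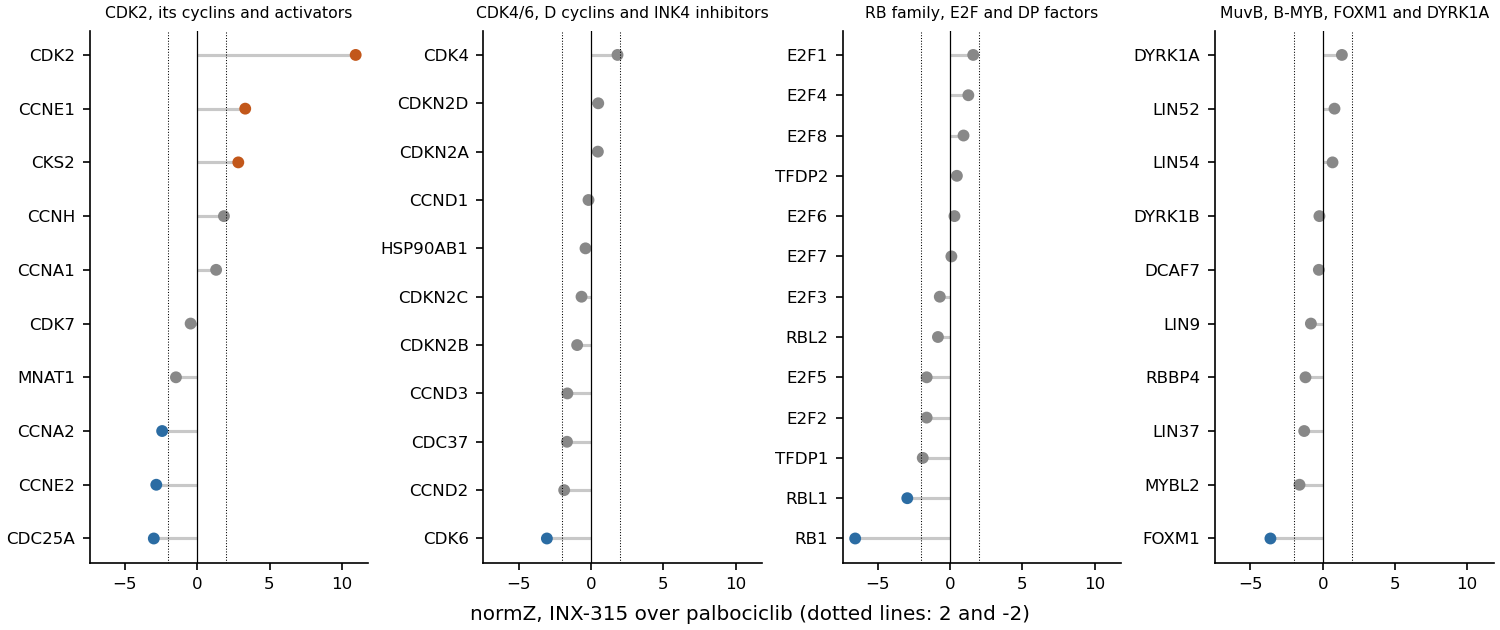
normZ of INX-315 over palbociclib (x axis) for each gene (y axis) of 4 cell cycle lists, in orange over 2, in blue under -2 and in grey between, with dotted lines at both thresholds. CDK2 at 10.96 and RB1 at -6.58 are the ends of the range, and most other genes lie between the thresholds.

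Genes of the G2/M programme lay lower with INX-315 where they passed, and most did not pass. FOXM1 stood at 63.6 CPM in DMSO, 24.1 with INX-315 and 74.3 with palbociclib (normZ -3.62, log2 ratio -2.01 ± 1.44, lower for 4 of 4 guides). Its guides ran from 33 to 698 counts with INX-315 and from 470 to 977 with palbociclib. CCNB1 stood at 36.6, 9.48 and 38.1 CPM (normZ -3.43), where 3 guides held 25, 47 and 32 counts with INX-315 against 191, 392 and 575 with palbociclib, and the other guide held 362 and 428. MYBL2, which encodes B-MYB, was split, with ratios of -2.83, -2.84, 0.08 and 0.78 and a normZ of -1.61. CDK1 was split as well, with a normZ of 0.71. Its first and second guides, which overlap, held 0 and 0 counts with INX-315 against 15 and 133 with palbociclib, while the others held 239 and 613 against 20 and 103. Without its farthest guide CDK1 scored 2.62, so no direction is given for it. Of the 10 genes of the MuvB list, FOXM1 alone was past either threshold. DYRK1A, the kinase that assembles the MuvB repressor complex, scored 1.33. It was above DMSO with both drugs, at 48.1, 140.4 and 99.1 CPM in DMSO, INX-315 and palbociclib. Of the 22 genes of the CDK1 and G2/M list, CCNB1 and CDCA8, a subunit of the Aurora B complex (normZ -2.35), lay under -2 and none lay over 2, and the list's median of -0.52 compares with 0.01 over all genes.

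LCMT1 and PPP2R2A, which act in PP2A-B55, the phosphatase that opposes CDK1, ranked 3 and 4 of all genes from the top. LCMT1, the methyltransferase that matures the PP2A catalytic subunit, stood at 71.4 CPM at the start, 46.4 in DMSO, 98.8 with palbociclib and 343.5 with INX-315. All of its guides were higher with INX-315, with ratios from 1.49 to 2.59. PPP2R2A, the B55 alpha subunit, stood at 49.4, 47.4, 68.2 and 233.2 CPM in the same order, and 3 of its 4 guides had ratios of 1.88 to 2.87, the other 0.27. Both were above their DMSO level with either drug and 3.48-fold and 3.42-fold higher with INX-315 than with palbociclib. Of the 11 genes of this list, these 2 lay over 2 and none under -2, with a median of 0.76. CELF1, an RNA-binding protein, had guides that agreed closely, at 2.07 to 2.81, and stood at 46.7 CPM in DMSO, 43.0 with palbociclib and 220.5 with INX-315. KIDINS220, a scaffold of neurotrophin receptors, stood at 34.5, 56.6 and 171.3 CPM (normZ 4.05). The other high scores by the naming rule were UBN1, a histone H3.3 chaperone subunit, at 3.70, C20orf194 (now DNAAF9) at 3.69, C19orf25 at 3.63, CEP85 at 3.62, the mitochondrial tryptophanyl-tRNA synthetase WARS2 at 3.53, choline kinase CHKA at 3.497 and the dynein heavy chain DYNC1H1 at 3.48.

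After RB1, the lowest scores belonged to genes of unlike function. NRM, which encodes the inner nuclear membrane protein nurim, held 21, 0, 178 and 0 counts with INX-315 and 430, 46, 761 and 533 with palbociclib. Its last guide was at least 209.6-fold higher with palbociclib, taken against 3 counts. LEMD2, another inner nuclear membrane protein, stood at 37.7 CPM in DMSO, 7.04 with INX-315 and 42.0 with palbociclib (normZ -4.22). UBA6, a ubiquitin-activating enzyme, held 124, 164, 272 and 157 counts with INX-315 and 919, 898, 1122 and 781 with palbociclib, and its ratio of -2.50 ± 0.30 varied little among guides. POC1A, a centriole protein, held 71, 37, 1 and 20 counts against 186, 419, 238 and 666. FZR1, the CDH1 activator of the APC/C ubiquitin ligase, stood at 43.8 CPM in DMSO, 17.0 with INX-315 and 72.7 with palbociclib (normZ -3.85). The rest of the lowest 12 were ZBTB49, FAM19A4 (now TAFA4) at -4.18, the phosphatase PPM1G at -4.09, the histone H3K36 methyltransferase WHSC1 (now NSD2) at -4.05, the RNA-binding protein SYNCRIP at -3.95 and SMOC2 at -3.91. PPM1G stood at 60.6 CPM in DMSO, 54.4 with palbociclib and 12.1 with INX-315.

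The DMSO library was not used in the scores of INX-315 over palbociclib, but the genes counted here were picked by those scores. Picking extreme ratios favours genes whose value moved in the library with the wider spread, here INX-315. That alone can place DMSO nearer to palbociclib, so the shares that follow are no independent support for the scores. For 348 of the 380 genes higher with INX-315 (91.6%) and 417 of the 424 lower with it (98.35%), the DMSO level was nearer to palbociclib than to INX-315, against 13155 of all 18050 genes (72.9%). The exceptions, where palbociclib lay further from DMSO, numbered 32 and 7 and included RB1, RBL1 and CCNE1. Of these exceptions, 6 genes lower and 20 higher with INX-315 had at least 3 guides that all went the same way. The lower ones besides RB1 and RBL1 were DRAP1, C14orf93, PCGF1 and CSTF1, named after their values were seen. Of the higher ones, ZZEF1 at 3.35 and TRIT1 at 3.23, just above and just below CCNE1, were likewise named afterwards. TRIT1, a tRNA-modifying enzyme, stood at 18.8 CPM in DMSO, 31.2 with INX-315 and 7.68 with palbociclib. How much the wider spread of the INX-315 library adds to this imbalance was not tested.

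The comparison is silent on genes that both drugs moved alike. AMBRA1, the adaptor that directs degradation of D cyclins, was chosen after its values were seen. It stood at 39.9 CPM in DMSO, 306.2 with INX-315 and 212.7 with palbociclib, and its normZ was 0.71. FBXW7, a cyclin E ligase subunit chosen in the same way, was above DMSO with both drugs but higher with INX-315, at 56.2, 175.2 and 103.4 CPM. Its normZ of 1.79 was under the threshold of 2, so it was not moved as alike as AMBRA1. Guides against many genes that all cells need were lost under both drugs, with no test of the difference. The 71 cytosolic ribosomal protein genes had a median log2 change from the start of -2.13 with INX-315, -1.80 with palbociclib and -2.03 in DMSO, and the 31 proteasome genes of -2.23, -2.24 and -2.28. Single members differed more, in either direction, as RPL14 at -2.68 with INX-315 and -4.13 with palbociclib and PSMA3 at -3.76 and -2.19.

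Of 33 gene lists, 26 held at least 1 gene past a threshold, to be read beside the 2.11% and 2.35% of all genes on the respective sides. The lists were chosen with earlier results of these data known, so a share above these describes the list and is no independent support. In the methionine and PRMT5 list, 3 of 13 genes lay under -2 and none over 2. They were MAT2A, the enzyme that makes S-adenosylmethionine, at 12.7 CPM in DMSO, 2.16 with INX-315 and 20.8 with palbociclib (normZ -3.42), MTRR at -3.14 and PRMT7 at -2.86, while PRMT5 scored -0.11. MAT2A guides were already lost in DMSO from 60.4 CPM at the start, and 1 of them was at 0 with INX-315. The APC/C and spindle checkpoint list held FZR1, BUB3 and FBXO5 under -2 among 26 genes, and BUB3 was down to 1 count over its 4 guides with INX-315. The centriole, satellite and augmin list was divided, with 4 of 26 genes over 2, CEP85 and CEP192 at 3.62 and 2.65 among them, and 3 under -2, POC1A and POC5 at -4.55 and -3.27 among them. In the Hippo and STRIPAK list, SLMAP, a STRIPAK subunit that holds the Hippo kinases off, scored 3.32 with 55.2 CPM in DMSO, 146.1 with INX-315 and 53.1 with palbociclib, and the kinase TAOK1 and the YAP partners TEAD1 and TEAD4 scored -3.12, -2.15 and -2.10, with 29 genes in the list.

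**Figure D5:**
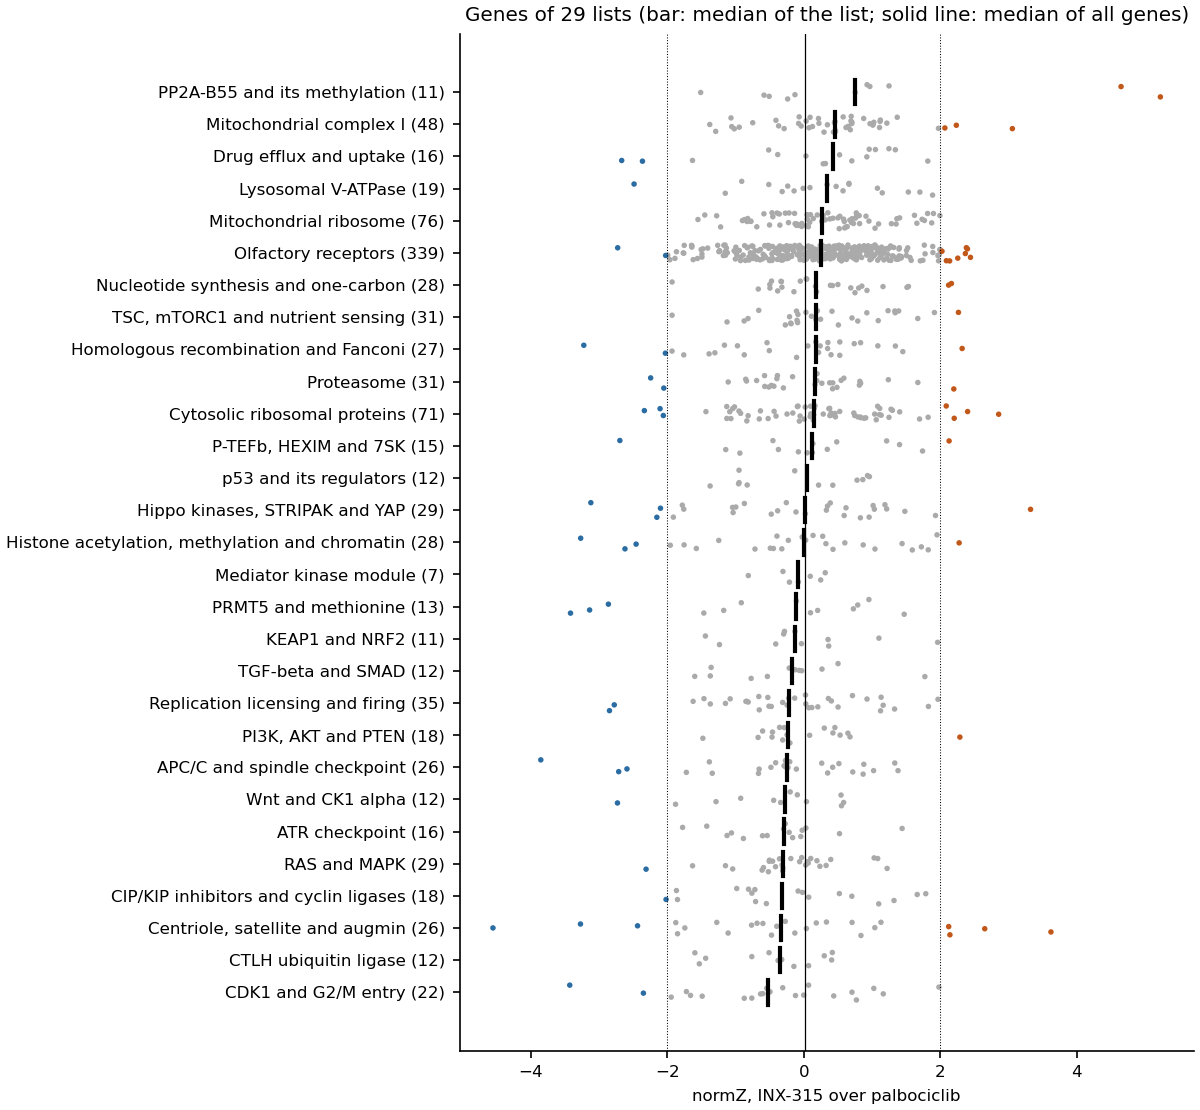
normZ of INX-315 over palbociclib (x axis) for the genes of 29 lists other than the 4 cell cycle lists (y axis, genes scored in parentheses), in orange over 2 and in blue under -2. Bars are list medians, which run from -0.52 for CDK1 and G2/M entry to 0.76 for PP2A-B55 and its methylation, and the solid line is the median of all genes, 0.01.

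Chromatin regulators KMT2A and its cofactor MEN1 scored -3.27 and -2.46 and PBRM1 scored -2.62. Their list of 28 had 3 genes under -2 and KAT8 alone over 2. Scored against DMSO with INX-315 and then palbociclib, KMT2A gave -1.58 and 3.07, MEN1 -2.52 and 0.26 and PBRM1 -3.10 and -0.65. RAD54L, a recombination motor protein, stood at 50.65 CPM in DMSO, 20.3 with INX-315 and 80.2 with palbociclib (normZ -3.22). FANCF scored -2.03, while PALB2 lay at 2.32 among 27 genes of recombination and Fanconi repair. The replication list of 35 held ORC6 at -2.85 and DBF4, the activator of CDC7, at -2.78. Scored in the same way against DMSO, RAD54L gave -2.01 and 2.17, ORC6 -2.82 and 0.58 and DBF4 -1.42 and 2.49. Of 16 drug transporters and metabolising enzymes, the efflux pump ABCC1 at -2.36 and SLC22A3 at -2.67 lay under -2. In complex I of the respiratory chain, NDUFV1, NDUFA1 and NDUFV3 lay at 3.06, 2.24 and 2.07, with 3 of 48 genes over 2, none under -2 and a median of 0.46, beside a median of 0.26 for the olfactory receptors. None of 76 mitochondrial ribosome, 16 ATR checkpoint, 12 p53, 11 KEAP1 and NRF2, 12 CTLH ligase, 12 TGF-beta or 7 Mediator kinase genes was past either threshold. The other lists held 1 or 2 genes on a side, CUL1 at -2.02, MAPK3 at -2.31, ATP6V1D at -2.49, TCF7L2 at -2.73, CDK13 at -2.69, FOXO1 at 2.29, RHEB at 2.27, MEPCE at 2.13, FPGS at 2.16 and CTPS1 at 2.12. The proteasome had 1 gene over 2 (PSMA2 at 2.20) and 2 under -2, and the cytosolic ribosome 4 and 3, RPS25 at 2.86 being the highest.

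HCC1806, a triple-negative breast cancer line screened with the same library, was given 500 nM INX-315 and 500 nM palbociclib in separate screens, each with its own DMSO libraries, so its drugs cannot be set directly against each other. There, against DMSO, CDK2 scored 5.69 with INX-315 and -0.67 with palbociclib, and RB1 scored 0.72 and 8.32. CCNE1 scored -3.67 and -7.05, CDK6 -6.30 and 0.55, FOXM1 -8.83 and -1.39, and CCNB1 -10.6 and -0.06. LCMT1 scored 2.60 with INX-315 and 2.53 with palbociclib, PPP2R2A 3.03 and 2.63, and CELF1 3.32 and 1.34. With INX-315 in HCC1806, the 12 highest genes of MIA PaCa-2 ran from -1.27 for UBN1 to 5.69 for CDK2, with KIDINS220 at -0.21, C20orf194 at -1.08 and WARS2 at -0.71. The 12 lowest ran from -4.36 for POC1A to 0.72 for RB1, with SYNCRIP at -2.62, UBA6 at -0.27 and NRM at 0.01. Both sets were ranked by INX-315 over palbociclib in MIA PaCa-2, which is a different ratio. Scored against DMSO, INX-315 in MIA PaCa-2 gave 6.01 for CDK2, 3.30 for UBN1, 0.02 for CCNE1 and -0.02 for RB1. The same scores were -5.71 for POC1A, -3.38 for SYNCRIP, -3.77 for UBA6 and -5.36 for NRM. With the second of the 2 HCC1806 DMSO libraries alone as the control, the INX-315 scores in HCC1806 were 5.50 for CDK2, 1.37 for RB1, -5.60 for CCNE1, -8.43 for CDK6, -12.3 for FOXM1 and -14.35 for CCNB1. UBA6 turned to 0.67 and NRM stood at 0.69.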

How the data were processed

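Guides were amplified from genomic DNA by a 2-step PCR and sequenced, adapters were removed with Trim Galore, and the authors counted guides with MAGeCK 5.9 (per the submitters' processing notes). The labels name the molecule as total RNA. The deposited tables hold raw counts per guide, and a deposited signal table in which each library's counts are multiplied by 1 factor to equal totals, used here as an alternative. No table holds fold changes or p-values, and no guide sequence was used. Genes were read from guide names, since 109 cells of the gene column had become dates. The 612 guides at 0 in both drug libraries and the 142 non-targeting guides were not scored as genes, which left 18050 of 18053 genes.

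DrugZ was rewritten with numpy 2.4.6, scipy 1.17.1 and pandas 2.3.3 under Python 3.11.15, and figures used matplotlib 3.10.9. Counts were scaled to 10000000, a pseudocount of 5 was added, and the spread was taken over a window of 1000 guides in steps of 25, ordered by the mean of both drug libraries, since neither is a control. The guide spread ran from 0.72 to 1.38 on the log2 scale. The score was also run on simulated counts with the same dispersion in both libraries. The real drug libraries differed in spread, so that run does not measure the accuracy of the score here. Levels are CPM, with 0.5 added before log2. In HCC1806 and for each drug against DMSO, guides were ordered by DMSO counts. Intervals of a fold are 95% Clopper-Pearson. Named genes are the 12 highest and 12 lowest scores of genes whose 3 or more guides shared 1 direction, all genes of the 4 cell cycle lists, up to 4 genes past a threshold in each other list, and CDK2, CCNE1, RB1, FOXM1, CCNB1 and CDK1, 115 genes in all. RefSeq held 112 of these symbols as current and 3 as older names. Of the listed genes, 13 names are not in the guide library. The comparison and the lists were chosen with earlier results of these data known.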

Additional observations from a re-analysis of the deposited data

How the results depend on the processing

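No paired analysis was possible because each drug has 1 library in MIA PaCa-2, and for the same reason no library could be left out. The 12 other settings (a pseudocount of 1 or 20, 2 filters on low guides, the deposited normalized counts, 2 other scalings, a window of 400 guides, 2 other orders of the guides, the median guide, and each gene without its farthest guide) gave 267 to 406 genes higher and 413 to 522 lower with INX-315. The ends of this range, 267 and 522, came from ordering guides by palbociclib counts alone. A threshold of 3 gave 35 higher and 49 lower, and asking for at least 3 guides that all went the same way gave 229 higher and 299 lower, both by their own construction. Of 80 named genes past a threshold, 47 were past it in each of the 12 settings, CDK2 and RB1 among them, and none of the 960 values turned sign, while 59 fell between the thresholds. These genes were picked out by the same scores, some because all their guides shared 1 direction. Few sign changes could therefore occur, and their absence is no independent support. Among the 33 list medians, 20 of 396 values changed sign, and the widest shift was 0.83, in the PRMT5 and methionine list, which ran from -0.94 to 0.11. The PP2A-B55 median ran from 0.52 to 0.82 and the CDK1 and G2/M median from -0.58 to -0.16. Depth limits genes that all libraries lose, such as BUB3 and PSMA6, whose guides were close to 0 with INX-315.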

Other observations

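Over guides with at least 100 counts at the start, the median log2 ratio of INX-315 over palbociclib ran from -0.24 on chromosome 5 and chromosome 10 to 0.24 on chromosome 21, against -0.09 over all guides. These medians were not tested. The 140 non-targeting guides had a median ratio of 0.10 and an SD of 0.99.

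TRIM37, CDK5 and APEX2 lay near the lowest scores with all 4 guides lower with INX-315, and were chosen after their values were seen. TRIM37, a ubiquitin ligase that limits centriole proteins, stood at 51.3 CPM in DMSO, 12.4 with INX-315 and 56.7 with palbociclib (normZ -3.68). CDK5, a cyclin-dependent kinase best known from neurons, stood at 37.1, 13.4 and 54.3 CPM (normZ -3.48). APEX2, an abasic-site nuclease, had a normZ of -3.42.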
